A study of Mus musculus with 4 samples.

Results

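The TBP_MUT_60 and TBP_60 libraries are 2 sets of designed DNA probes that differ only in a pair of bases within an alternating A and T stretch named for TBP. Members were taken by name and comprised 512 of the 6126 probe names on the array, in equal numbers. Each TBP_MUT_60 probe has a TBP_60 partner with the same 4 varied bases, and every such pair was compared. Antibody signal was measured on 4 arrays. They were an irradiated (UV) and a non-irradiated (Non-UV) array with an antibody against cyclobutane pyrimidine dimers (CPD, diluted 1 in 400), and a UV and a Non-UV array with an antibody against 6-4 photoproducts (6-4PP, diluted 1 in 80). Each condition was 1 array, so no difference between arrays has a replicate check. Mouse is the labelled organism, but the DNA is synthetic, and no TBP protein is named in the labels of these arrays.

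TBP, the TATA-binding protein, starts the assembly of the transcription machinery at many promoters by binding a T- and A-rich stretch and bending it sharply. UV light fuses neighbouring pyrimidines, either through a ring that joins both bases (CPD) or through a single bond between them (6-4PP), and both lesions block polymerases until they are repaired. CPD are known to form readily at TT and 6-4PP at TC. Comparing the libraries asks how much the antibody signal at the same varied bases differs between the backbones.

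The sequences below show the pairs that the results turn on. Capitals mark the changed bases at positions 11 and 12 and the varied bases at positions 18 to 21, counted from 1 at the 5′ end of the listed strand. All are 60 bases long, come from the deposited files and have no genome position. The CGCA and ATCG pairs differed most with the 6-4PP antibody on the UV array below the ceiling, and the CTTT pair kept its call in a second print.
TBP_MUT_60_CGCA: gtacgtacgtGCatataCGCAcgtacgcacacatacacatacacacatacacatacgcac
TBP_60_CGCA: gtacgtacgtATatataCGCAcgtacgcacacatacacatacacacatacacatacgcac
TBP_MUT_60_ATCG: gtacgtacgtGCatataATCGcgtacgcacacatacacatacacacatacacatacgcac
TBP_60_ATCG: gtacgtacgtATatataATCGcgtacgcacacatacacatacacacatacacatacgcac
TBP_MUT_60_CTTT: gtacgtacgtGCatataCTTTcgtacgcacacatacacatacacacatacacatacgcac
TBP_60_CTTT: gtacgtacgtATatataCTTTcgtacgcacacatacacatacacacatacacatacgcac
The ATTT pair was the brightest of both libraries with the CPD antibody on the UV array.
TBP_MUT_60_ATTT: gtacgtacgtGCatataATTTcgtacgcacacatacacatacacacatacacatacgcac
TBP_60_ATTT: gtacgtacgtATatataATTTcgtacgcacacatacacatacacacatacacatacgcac
The TTAG, TTGC and TATA pairs stood out on DNA that had not been irradiated.
TBP_MUT_60_TTAG: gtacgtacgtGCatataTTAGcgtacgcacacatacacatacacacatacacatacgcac
TBP_60_TTAG: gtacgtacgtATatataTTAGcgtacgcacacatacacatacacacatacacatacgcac
TBP_MUT_60_TTGC: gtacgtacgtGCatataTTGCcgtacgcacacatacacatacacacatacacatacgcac
TBP_60_TTGC: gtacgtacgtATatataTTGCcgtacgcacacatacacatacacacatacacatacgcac
TBP_MUT_60_TATA: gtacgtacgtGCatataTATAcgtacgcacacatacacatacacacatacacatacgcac
TBP_60_TATA: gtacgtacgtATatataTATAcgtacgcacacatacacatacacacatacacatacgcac

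In every pair the substitutions were A11G and T12C, with the TBP_60 base first. An A or G at position 11 and a T or C at position 12 both keep purines and pyrimidines alternating, so the change neither made nor removed a dipyrimidine on either strand. Every dipyrimidine of a probe lay between positions 17 and 22, where the varied bases meet an A on their 5′ side and a C on their 3′ side. At least 5 unchanged bases separated the change from the varied bases. The numbers, types and places of dipyrimidines were therefore identical within each pair. Among the pairs, 16 had no dipyrimidine, 160 had 2 and 80 had 4, counted on both strands.

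Each probe was printed in 10 spots, and its value is the median intensity of unflagged spots in arbitrary fluorescence units on a linear scale. The median SD of log2 intensity over the spots of a member was 0.59 with CPD on UV DNA and 0.22 on Non-UV DNA, and 0.27 with 6-4PP on UV DNA and 0.16 on Non-UV DNA. On the CPD UV slide the deposited local median varied between 1118 and 8004, and the median spot SD was 0.28 once spots were adjusted for it. Results are therefore given for the unadjusted and the adjusted intensity. For 6-4PP after irradiation the scale ended at 65535, and the medians of 8 TBP_MUT_60 and 13 TBP_60 probes lay at this ceiling, where they are lower bounds. Flags removed 11 TBP_MUT_60 and 15 TBP_60 spots on that array, and 57 and 48 spots on the 6-4PP Non-UV array, and every member kept at least 7 spots. For 6-4PP, each sample title names the other condition than the array condition field does, and the field was used here. The amount of DNA in a spot was not measured, so a difference between 2 probes includes any difference in how much DNA they held. Single pairs were compared by an exact two-sided permutation test of the mean log2 spot intensity. The p-values were adjusted by Benjamini-Hochberg over all 2560 pairs of a site and its changed version on an array. The printed differences are of medians over spots, so a p need not follow the difference beside it. AAAA with 6-4PP on UV DNA differed by -0.20 in medians, with an unadjusted p of 0.99 by the exact permutation test. A pair was called at an adjusted p under 0.05. This test compares spots of 1 array and says nothing of repeat irradiations.

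The changed site went with slightly lower 6-4PP signal on irradiated DNA. In the 6-4PP UV data TBP_MUT_60 probes ranged from 4039 to 65535 with a median of 14832.5, and TBP_60 probes ranged from 3569.5 to 65535 with a median of 16272.25. Both upper ends are the ceiling, so the ranges can be compared only at their lower ends. Within pairs, the TBP_MUT_60 probe was dimmer in 197, brighter in 52 and equal in 7, and all 7 equal pairs had both medians at the ceiling. Its median was -0.11 in log2 units, or 0.928-fold. The quartiles of the difference were -0.20 and -0.01. With adjusted intensity the median was -0.10, with 188 pairs lower and 68 higher. More than 1.5-fold separated 2 pairs.

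In single pairs, 19 were called lower and 1 was called higher with the changed site (7.42% and 0.391%). Over all site pairs of the series on that array, 2.42% were called lower and 7.93% higher. The called lower pairs had differences between -0.64 and -0.16, with a median of -0.27. With adjusted intensity 19 were again called lower and 1 higher, against 2.54% and 8.48% over the series, and 9 of the 19 lower pairs were called with both columns. Beside ATCG at -0.64, CCAT at -0.55, CTTG at -0.51 and GAGA at -0.27, which are described in detail further on, they were TTTA, with 23184.5 and 30653.5, GGTT, with 27112 and 34763.5, AGTC, with 21588 and 26698.5, CAAT, with 26848 and 31879, and AAGT, with 23353 and 26073, the changed site first in each. The last 5 differed by between -0.40 for TTTA and -0.16 for AAGT. They are named because both columns called them, a choice made after their values were seen. Each of the 9 holds 2 or 4 dipyrimidines, as do all pairs of the libraries but 16, so this does not set them apart.

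TBP_MUT_60_ATCG, whose varied bases hold a TC flanked by A and G, had 34645 ± 6098 and TBP_60_ATCG had 54066 ± 9620 on the 6-4PP UV array (SD, 10 spots each). The spots ran from 19829 to 42663 with the changed site and from 37878 to 65535 with the TBP site, so they overlapped at their edges. The difference of -0.64 had an adjusted p of 0.0049 by the exact permutation test, and of 0.0089 with adjusted intensity. For CPD after irradiation the same pair had 4957 and 6401, a difference of -0.37 with an adjusted p of 0.84 in the exact permutation test.

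CCAT and CTTG followed among the lowest pairs of the 6-4PP UV array. TBP_MUT_60_CCAT had 28296 ± 7337 and TBP_60_CCAT 41557 ± 6324 (SD, 10 spots each), a difference of -0.55 with an adjusted p of 0.0435 in the exact permutation test. TBP_MUT_60_CTTG had 15097.5 ± 1099 and TBP_60_CTTG 21560.5 ± 11129 (SD, 10 spots each). That pair differed by -0.51 with an adjusted p of 0.000433, the smallest of the library on this array by the exact permutation test.

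CGCA had the highest difference on both UV arrays by unadjusted intensity, and its varied bases form no dipyrimidine. With 6-4PP on UV DNA TBP_MUT_60_CGCA had 5682.5 ± 1472, with spots from 3276 to 7997, and TBP_60_CGCA had 3613.5 ± 600, with spots from 2801 to 4682. Both probes lay far below the library medians, and their spots overlapped. The difference was 0.65, with an adjusted p of 0.0219 by the exact permutation test and 0.0103 with adjusted intensity. In the CPD UV data the probes had 2450.5 and 1041, a difference of 1.24 with an adjusted p of 0.20 in the exact permutation test. Adjusted intensities there were 2347 and 1854, a difference of 0.34 with an adjusted p of 0.16 in the same exact test. By adjusted CPD intensity CGGG, at 0.55, and CTGC, at 0.53, were higher than CGCA.

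The other high pairs of the 6-4PP UV array were not called. TBP_MUT_60_GCTG had 5365.5 and TBP_60_GCTG 3668, a difference of 0.55 with an adjusted p of 0.26 by the exact permutation test. TBP_MUT_60_CATG, another pair without a dipyrimidine, had 6875.5 and TBP_60_CATG 5179.5, a difference of 0.41 with an adjusted p of 0.63 by the same exact test. With adjusted intensity GCTG differed by 0.34 and CATG by 0.09. The CATG sequences printed again on this array, as described further on, had 5068 and 5075.5.

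With the CPD antibody on irradiated DNA the pairs were split about evenly in direction. TBP_MUT_60 probes ranged from 1128 to 15282.5 with a median of 3925.75, and TBP_60 probes ranged from 972.5 to 20402.5 with a median of 3985. Within pairs the changed site was brighter in 122 and dimmer in 134, with a median difference of -0.02 (0.989-fold). Adjusted intensity gave 121 brighter, 135 dimmer and a median of -0.01.

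By unadjusted CPD UV intensity, 0 pairs were called higher and 0 lower by the exact permutation test, with 8 higher and 19 lower at an unadjusted p under 0.05. The background over the series was 0.0781% in each direction. Adjusted intensity gave 2 higher pairs, CTGC and CGGG, and 1 lower pair, AGTA, against 1.05% and 0.508% over the series. CTGC differed by 0.53 (adjusted p 0.0092), CGGG by 0.55 (0.0438) and AGTA by -0.38 (0.0373) in that exact permutation test. For AGTA the unadjusted difference was 0.71, with the opposite sign, and for CGGG it was -0.10. CTGC was 0.51 unadjusted.

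The lowest and highest CPD UV pairs by unadjusted intensity were closer together with the spatial adjustment. CGAG had 1789.5 ± 1658 with the changed site and 4703.5 ± 2224 with the TBP site, a difference of -1.39, and its adjusted intensities were 3724 and 3624. GGTA had a difference of -1.01 unadjusted and -0.29 adjusted, and TCGT had -0.95 and -0.08. On the high side GCCG had 1.14 and 0.27, and CCCG had 1.11 and 0.05. The SD over pairs fell to 0.21 with adjusted intensity, against 0.41 without it, and the pairs over 1.5-fold apart numbered 2 with it and 40 without it.

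The brightest CPD probe of either library had the varied bases ATTT. TBP_MUT_60_ATTT had 15282.5 ± 3249 and TBP_60_ATTT 20402.5 ± 4639 (SD, 10 spots each), with spots from 11459 to 19834 and from 13832 to 29418. The difference was -0.42 unadjusted and 0.33 with adjusted intensity, so its direction depends on the adjustment, and its adjusted p was 0.53 in the exact permutation test. With the 6-4PP antibody TBP_MUT_60_ATTT had 54630.5 and TBP_60_ATTT was at the ceiling. The dimmest CPD probes were TBP_MUT_60_GCCA at 1128 ± 1145 and TBP_60_TACG at 972.5 ± 667. The dimmest 6-4PP probes were TBP_MUT_60_CGTA at 4039 ± 1759 and TBP_60_TACG at 3569.5 ± 806. Neither CGTA nor TACG forms a dipyrimidine.

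The varied bases set the level far more than the site did. Across all combinations of varied bases, log2 intensities of TBP_MUT_60 and TBP_60 had a Pearson r of 0.99 on the 6-4PP UV array and 0.89 on the CPD UV array, or 0.97 with adjusted intensity. These are descriptions over probes that share an array and most of their sequence. The SD of log2 levels over TBP_MUT_60 was 1.06 on the 6-4PP UV array and that over TBP_60 was 1.12. With CPD on UV DNA they were 0.79 and 0.88. On the 6-4PP Non-UV array, where levels of TBP_MUT_60 had an SD of 0.08, r was 0.40.

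Pairs without a dipyrimidine had a 6-4PP median difference above 0, and pairs with 2 or 4 had medians below 0. On the 6-4PP UV array the 16 such pairs had medians of 4628.5 with the changed site and 4353 with the TBP site. The median difference was 0.16, with 10 pairs higher and 6 lower. The 160 pairs with 2 dipyrimidines had medians of 11723.25 and 12558.5, a median difference of -0.11, and 35 pairs higher and 121 lower. The 80 pairs with 4 had 26322.75 and 28677.5, a median difference of -0.14, and 7 pairs higher and 70 lower. Adjusted intensity kept this order, at 0.11, -0.10 and -0.13. Those without a dipyrimidine that begin with C were printed again on this array, as described further on. The second print gave 0.36 for CGCA, 0.27 for CGCG and 0.18 for CACA. It gave -0.14 for CACG, -0.09 for CGTG, -0.06 for CATA, -0.02 for CGTA and -0.002 for CATG. Of these, CGTG, CATA and CATG were above 0 in the first print. By adjusted intensity CGTG, CGTA and CATG were below 0 in the second print and the others above. The dependence on dipyrimidine number was not tested, since pairs of 1 backbone on 1 array are no replicates.

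With CPD the median difference was also above 0 without a dipyrimidine and below 0 with 4. With 0 dipyrimidines the medians were 1985.25 with the changed site and 1817.75 with the TBP site, and 12 of 16 pairs were higher with the change. With 2 they were 3638 and 3730, with 79 pairs higher and 81 lower. With 4 they were 5123 and 5641.75, with 31 higher and 49 lower. The median differences were 0.13, -0.00 and -0.09 unadjusted, and 0.08, 0.01 and -0.09 with adjusted intensity. In the second print of pairs without a dipyrimidine that begin with C, CGCA and CGCG were above 0 unadjusted, at 0.10 and 0.86. The others ran from -0.32 for CATG to -0.03 for CGTG, and of these CACA, CATA and CGTG were above 0 in the first print. With adjusted intensity all in that second print but CGTA, at -0.07, were above 0. As folds over the pairs without a dipyrimidine, probes with 4 stood at 2.58 in TBP_MUT_60 and 3.10 in TBP_60 with CPD, and at 5.69 and 6.59 with 6-4PP.

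Both libraries ranked the types of dipyrimidine alike with 6-4PP, the photoproduct known for TC. Classes of pairs hold a single type or none, and the other 202 pairs are mixed. With TC alone, over 5 pairs, the class medians of both libraries were at the ceiling, at least 14.2-fold over none in TBP_MUT_60 and 15.1-fold in TBP_60. TT alone, over 14 pairs, gave 3.34-fold and 4.01-fold. CC alone, over 14 pairs, gave 2.44-fold and 2.71-fold, and CT alone, over 5 pairs, gave 1.16-fold and 1.14-fold.

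With CPD, TT alone stood highest, at 3.38-fold over none in TBP_MUT_60 and 4.09-fold in TBP_60. TC alone gave 2.21-fold and 2.77-fold, CT alone 1.66-fold and 1.35-fold, and CC alone 0.873-fold and 0.992-fold. With adjusted intensity the CT folds were 1.26 and 1.30. Their order between the libraries thus turned, over 5 pairs.

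Most pairs with TT alone were dimmer with the changed site for both antibodies. Of the 14 pairs with TT alone, 13 were lower with the changed site on the 6-4PP UV array, with medians of 15478.25 and 17461.75 and a median difference of -0.15. On the CPD UV array 12 of the 14 were lower, with medians of 6720 and 7436.5 and a median difference of -0.19. Adjusted intensity gave 13 of 14 at -0.16 and 11 of 14 at -0.15. On the Non-UV arrays the same 14 pairs had median differences of -0.13 with CPD, with 11 lower, and -0.03 with 6-4PP, with 7 lower. Adjusted intensity gave -0.015 with CPD, with 10 lower, and -0.03 with 6-4PP, with 8 lower. Without irradiation these probes stood at 1.13-fold over pairs with no dipyrimidine in TBP_MUT_60 and 1.24-fold in TBP_60 with CPD, and the part of this background in the result was not tested.

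Sorted by purines (R) and pyrimidines (Y), the varied bases make 16 patterns of 16 pairs each. In the 6-4PP UV data the median difference was below 0 in 14 patterns and above 0 in RYRR and YRYR. It was lowest in RRYR, at -0.17, and highest in YRYR, the pattern without a dipyrimidine, at 0.16. In RRRR all 16 pairs were lower with the changed site, with medians of 16433 and 18487.25, and 14 of the 16 were lower with adjusted intensity. Adjusted intensity left YRYR as the pattern with a median above 0. In the CPD UV data 8 patterns lay below 0 and 8 above, from -0.22 in RRRR to 0.14 in YYYR. Adjusted intensity gave 10 below and 6 above, from -0.13 in RRRY to 0.10 in YRRY, with RRRR at -0.03.

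The base at position 18, next to the A that ends the shared stretch, went with the CPD difference. With A there, which makes a TT on the opposite strand, the CPD UV medians were 5755.75 with the changed site and 6408.25 with the TBP site over 64 pairs, and 43 pairs were lower with the change. With adjusted intensity 51 of 64 were lower and the median difference was -0.16, against -0.14 unadjusted. With C there, 43 of 64 pairs were higher by adjusted intensity, with a median difference of 0.09, against 37 and 0.05 unadjusted. G and T gave adjusted medians of 0.01 and -0.00. On the CPD Non-UV array A had a median difference of -0.07 with 45 of 64 lower, beside -0.05, -0.01 and -0.08 for C, G and T. With adjusted intensity A had -0.06 with 49 of 64 lower, beside -0.03, -0.02 and -0.03. The part of this background in the CPD UV difference was not tested. With 6-4PP on UV DNA the median differences in the same order of bases, from A through C and G to T, were -0.14, -0.08, -0.11 and -0.10, all below 0.

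The base at position 21 went with the level of 6-4PP signal in both libraries. T there forms TC with the C at position 22. Such probes had medians of 32642 in TBP_MUT_60 and 37198.5 in TBP_60, and G there gave 10147.75 and 10915.5. Of the members at the ceiling, 7 of 8 in TBP_MUT_60 and 12 of 13 in TBP_60 ended their varied bases in T, and the other in each library was ATCA. All 21 held a TC step, as do 140 of the pairs. With CPD on UV DNA T at position 21 gave 5159 and 5431.75, and G gave 3219.75 and 2835.

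Probes with repeated bases illustrate the spread. TTTT had CPD UV values of 13319.5 ± 3018 with the changed site and 16624 ± 2898 with the TBP site (SD, 10 spots each). AAAA, its complement on the opposite strand, had 9666.5 ± 1851 and 10656 ± 2313. CCCC had 1810.5 ± 1025 and 3088.5 ± 1280, and GGGG had 1819 ± 1014 and 2187.5 ± 734. All 4 pairs were dimmer with the change, with log2 differences of -0.32, -0.14, -0.77 and -0.27, and none was called. Their differences with adjusted intensity were -0.21, -0.16, -0.16 and -0.01.

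For 6-4PP after irradiation the same pairs were dimmer with the changed site. TTTT had 38500 and 42476.5, AAAA 15866.5 and 18222.5, CCCC 19268.5 and 20741, and GGGG 8996.5 and 10375.5, the changed site first in each. Their log2 differences were -0.14, -0.20, -0.11 and -0.21, and none was called. With adjusted intensity they were -0.17, -0.36, -0.08 and -0.10. Alternating runs gave 38478 and 39135.5 for TCTC, and 26026.5 and 26132 for AGAG. GAGA had 14708 ± 1265 and 17760.5 ± 2853 (SD, 10 spots each), a difference of -0.27 with an adjusted p of 0.039 by the exact permutation test. CTCT had 51368.5 with the changed site and lay at the ceiling with the TBP site, a log2 difference of -0.35 that the ceiling limits, and of -0.21 with adjusted intensity. The second print of the same sequences had 49811.5 and 52289.5, a difference of -0.07, or 0.02 with adjusted intensity.

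ATTA and ATCA share flanking A bases. ATTA had CPD UV values of 12049.5 and 14800.5 and 6-4PP UV values of 29950 and 31358.5. ATCA had CPD UV values of 7744.5 and 6985, and both probes lay at the ceiling with 6-4PP. GCCA had CPD UV values of 1128 and 1964, and 6-4PP UV values of 5312.5 ± 891 and 6403.5 ± 935 (SD, 10 spots each). On the 6-4PP UV array GCCA differed by -0.27 with an adjusted p of 0.0199 by the exact permutation test, and of 0.28 with adjusted intensity.

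Without irradiation all members were dim. On the CPD Non-UV array TBP_MUT_60 ranged from 24.5 to 71 with a median of 30, and TBP_60 from 25 to 70.5 with a median of 31. The changed site was brighter in 86 pairs, dimmer in 156 and equal in 14, with a median difference of -0.05. On the 6-4PP Non-UV array TBP_MUT_60 ranged from 47.5 to 64.5 with a median of 54, and TBP_60 from 48.5 to 66 with a median of 55.5. There 89 pairs were brighter, 154 dimmer and 13 equal, with a median difference of -0.04. Since intensities are whole numbers near these values, a step of 1 unit is itself about as large as the difference.

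The 2 brightest CPD Non-UV members of each library were TTAG and TTAA, and the next were ATTA at 51.5 in TBP_MUT_60 and TTGG at 54.5 in TBP_60. TBP_MUT_60_TTAG had 71 ± 7.47 with spots from 60 to 82, and TBP_60_TTAG had 66 ± 9.96 with spots from 53 to 85. These values are 2.37-fold and 2.13-fold over the library medians. TBP_MUT_60_TTAA had 62 ± 8.6 and TBP_60_TTAA 70.5 ± 16.8. These sequences were thus brighter than most on either backbone on the array without irradiation, and the reason was not tested. Neither pair was called. With the 6-4PP antibody TTAG had 60.5 and 59 on the Non-UV array, above the library medians of 54 and 55.5.

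On the CPD Non-UV array 2 pairs were called lower and 0 higher, with 3 higher and 15 lower at an unadjusted p under 0.05 in the exact permutation test. The background was 0.391% lower and 1.91% higher. TBP_MUT_60_TTGC had 30 ± 5.4 with spots from 25 to 44, and TBP_60_TTGC had 42.5 ± 6.6 with spots from 31 to 50. That difference was -0.50, with an adjusted p of 0.044 by the exact permutation test and 0.00099 with adjusted intensity. TTGG differed by -0.46 at the same adjusted p of 0.044 in the exact permutation test. With adjusted intensity 5 pairs were called lower and 0 higher, against 0.664% and 4.22% over the series. To TTGC and TTGG it added TTCA at -0.19, AAAA at -0.20 and ATGC at -0.17 on the log2 scale. After irradiation TTGC had CPD values of 8067.5 and 9092.5, a difference of -0.17 with an adjusted p of 0.78 by the exact permutation test.

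On the 6-4PP Non-UV array 5 pairs were called lower and 0 higher by the exact permutation test, with 2 higher and 20 lower at an unadjusted p under 0.05. The lower pairs were TATA at -0.42, TACC at -0.24, AAAG at -0.21, GTTG at -0.19 and GCCC at -0.18 on the log2 scale. The background was 4.49% lower and 10.2% higher. Adjusted intensity called 4 lower and 1 higher, against 5.16% and 10.8% over the series. It kept TATA at -0.41, TACC at -0.24 and AAAG at -0.22, and added ACGC at -0.14 and, as the higher pair, GCCA at 0.16. The shares of members called on this array (1.95% lower) were thus below the series background in both directions.

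TATA in the varied bases lengthens the alternating A and T stretch of both probes. TBP_MUT_60_TATA had 48.5 ± 5.1 over 10 spots, ranging from 45 to 61, and TBP_60_TATA had 65 ± 6.3 over 9 spots, ranging from 50 to 71, on the 6-4PP Non-UV array. The difference of -0.42 had an adjusted p of 0.0099 by the exact permutation test, and of 0.0094 with adjusted intensity. With 6-4PP on UV DNA the pair had 4865 and 5109, and on the CPD UV array it had 2029 and 1848.5. Neither of these was called.

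Irradiated arrays were far brighter for every member. With the CPD antibody every TBP_MUT_60 probe was brighter on the UV array, by a median of 7.04 on the log2 scale, and every TBP_60 probe by a median of 6.997. With the 6-4PP antibody the medians were 8.07 and 8.24, again with every probe higher. The gain of each scan was not compared here, and a gain common to an array drops out of the difference between libraries. Within pairs, the changed site's difference on the UV array less that on the Non-UV array had a median of 0.04 with CPD, with 138 pairs above 0 and 118 below. With 6-4PP it was -0.07, with 91 above and 164 below. With adjusted intensity these medians were 0.03 and -0.06. No test of these values is possible with 1 array per condition.

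A second print of 64 pairs gave another set of spots on the same arrays. Varied bases that begin with C give the same sequence as a member of the TBP_E60 and TBP_MUT_E60 libraries, which repeat 128 member sequences under other names. For 6-4PP after irradiation the median difference over these pairs was -0.08 in the first print and -0.11 in the second, and the sign was the same in 48 of 64. Pearson r between prints was 0.42 across pairs, which share the array. For CPD after irradiation the first and second medians were 0.05 and -0.04, with the same sign in 29 of 64 and an r of -0.03. With adjusted intensity they were 0.09 and 0.08, with 44 of 64 and an r of 0.20. The same sequence printed under another name differed by a median of 0.23 on the log2 scale on the CPD UV array, 0.11 with adjusted intensity, and by 0.09 on the 6-4PP UV array.

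Among the pairs called in the first print of the 6-4PP UV array, 6 were printed again. CCAT had log2 differences of -0.55 in the first print and -0.22 in the second, CTTG had -0.51 and -0.08, CAAT had -0.25 and -0.22, and CGAA had -0.18 and -0.10. The other two were CTTT, also lower with the change, and CGCA, higher with it. By the exact permutation test CCAT, CTTG and CAAT had adjusted p of 0.68, 0.60 and 0.06 in the second print. All 6 kept their sign there, as did 48 of all 64 pairs printed again, and all 6 differences were smaller. By adjusted intensity the first print called 6 pairs of this kind too, of which 5 kept their sign and 0 were called again, and CCGT had -0.17 in the first print and 0.04 in the second. Of the 6 pairs called by unadjusted intensity, CTTT alone was called again. Its first print had 40946 ± 6692 and 53088 ± 7977 (SD, 10 spots each), a difference of -0.37 with an adjusted p of 0.0121 by the exact permutation test. Its second print had 41279 and 49329.5, a difference of -0.26 with an adjusted p of 0.0189 by the same exact test. With adjusted intensity CTTT missed the call in both prints, at 0.0502 and 0.22.
For CGCA the second print had 4752 and 3704, a difference of 0.36 that was not called. With adjusted intensity its second-print difference was 0.19, with an adjusted p of 0.82 by the exact permutation test. Of the pairs called with adjusted intensity on the CPD UV array, CTGC had a second-print difference of -0.05 and CGGG of 0.03, and neither was called again.

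The differences on the CPD UV and 6-4PP UV arrays had a Pearson r of 0.37 across all pairs, and 0.27 with adjusted intensity. Between the UV and Non-UV arrays r was 0.02 with CPD and -0.08 with 6-4PP, and 0.13 and -0.09 with adjusted intensity. Levels of the 2 antibodies on UV arrays had an r of 0.65 in TBP_MUT_60 and 0.70 in TBP_60.

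The other TBP libraries carry a 2-base change as well, and their medians are given beside those of the 60-base pairs without a test. In the 6-4PP UV data the median difference was -0.09 for the 59-base TBP pairs, with 58 higher and 192 lower. It was -0.08 for the E60 pairs and -0.09 for the E59 pairs, against -0.11 here. On the CPD UV array they were -0.02, -0.02 and -0.04, against -0.02 here. With adjusted CPD UV intensity the E60 and E59 medians were 0.05 and 0.02, and the 59-base and 60-base medians were both -0.01.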

How the data were processed

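The authors deposited 1 table per array with fluorescence intensity of the Alexa 488 label for 62976 spots, on a linear scale per the file headers. Scanner settings were not given in the sources used here. Deposited intensity without flagged spots equalled the raw intensity at every unflagged library spot. The deposited adjusted intensity equalled it multiplied by 1 constant per array and divided by the local median. The Cy3 column held 1 at every spot.

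Medians over spots, log2 differences (changed site minus TBP site) and exact permutation tests were computed with Python 3.11.15, numpy 2.4.6 and pandas 2.3.3. A test needed 3 unflagged spots in each probe, and 184756 assignments were enumerated for 10 spots against 10, so that 1.1e-05 was the smallest p. The test was checked on simulated data. Dipyrimidines were counted on both strands without the last 10 bases. Groups follow the condition field of the labels. The members, lists and tests were chosen with earlier results of these data known. Named pairs were the 3 highest and 3 lowest per UV array below the ceiling, the highest and lowest per Non-UV array, the brightest and dimmest probes, and 12 listed sets of varied bases. Alternatives were the adjusted intensity, means of spots, flagged spots kept, each spot left out, the ceiling pairs left out, ranks, a joint adjustment, the array titles and the listed strand alone. The second print was added after seeing the data. The number of arrays and spots limits the precision.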

Additional observations from a re-analysis of the deposited data

How the results depend on the processing

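Of 213 recomputed values for 50 results, 189 did not reverse sign and stayed within the spot SD or within 1.5 times of a count. This limit is wide for the site differences. The spot SD was 0.59 against a median of -0.016 on the CPD UV array, and 0.27 against -0.1079 on the 6-4PP UV array. For TC alone with 6-4PP on UV DNA the difference of 0 became -0.1261 with adjusted intensity and -0.1289 on the listed strand, and both count among the 189. With the CPD antibody on the UV array, 2 pairs were called higher and 1 lower with adjusted intensity, against 0 and 0. Adjusting the p-values of unadjusted intensity over all 4 arrays gave the same counts, but not all the same pairs. AGTA, lower by adjusted intensity, had a p of 0.0626 by unadjusted intensity in the exact permutation test, before any adjustment over pairs. Pairs called lower on the CPD Non-UV array numbered 5 with adjusted intensity and 1 by ranks, against 2. On the 6-4PP Non-UV array adjusted intensity called 1 pair higher, against 0, and 3 were lower with flagged spots kept and 2 with the joint adjustment, against 5. By the titles of the 6-4PP arrays the UV minus Non-UV medians become -8.071 for TBP_MUT_60 and -8.242 for TBP_60, and the difference between them 0.0713, by construction.

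Leaving out each spot in turn, the median difference of the changed site ran from -0.0632 to 0.0018 on the CPD UV array (0.0018 without spot 4), -0.0525 to -0.0466 on the CPD Non-UV array, -0.1171 to -0.0968 on the 6-4PP UV array and -0.038 to -0.0262 on the 6-4PP Non-UV array. Its UV less Non-UV median ran from -0.01 (without spot 6) to 0.0508 with CPD and from -0.0847 to -0.0637 with 6-4PP. The UV minus Non-UV median ran from 7.015 to 7.082 for TBP_MUT_60 and 6.947 to 7.032 for TBP_60 with CPD, and from 8.062 to 8.114 and 8.209 to 8.239 with 6-4PP.

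Site differences in small classes changed sign. On the CPD UV array adjusted intensity gave -0.0265 for TC alone, 0.0089 for CT alone and 0.0073 for CC alone. Counted on the listed strand alone, the classes gave -0.0043 for none, -0.0209 for TC, 0.2337 for CT and 0.0278 for CC. On the 6-4PP UV array CT alone gave 0.0981 with adjusted intensity and 0.0261 on the listed strand, and none gave -0.0897 on the listed strand, where this class takes in opposite-strand dipyrimidines. The cause of the other changes was not tested. No paired analysis was possible because each condition was 1 array with no replicate number. Values at the ceiling bound the 6-4PP differences of 14 pairs, and levels of 24.5 to 71 units bound what the Non-UV arrays resolve.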
